A study of Mus musculus with 134 samples.

Results

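SET-seq, which stands for same cell epigenome and transcriptome sequencing, reads the cytoplasmic RNA and the chromatin of a small sample of cells. Its expression libraries made from 10 mouse embryonic stem cells were compared with those made from 10000, to describe which genes and which functions were still measured in 10 cells. The members were the 2 expression libraries titled as 10 cells and the 2 titled as 10000 cells, 4 of the 134 samples of the series, all made with no antibody. Every cell came from 1 embryonic stem cell line, named E14 by the labels and ES-E14TG2a in the study's methods, of strain 129/Ola, labelled untreated and of age day1. The cells grew on gelatin in serum and leukemia inhibitory factor. A Wnt3a bead protocol is attached to all samples by the labels, but the treatment given for these 4 is untreated. No label says whether the 2 libraries of a cell number came from separate cultures, so that p-values measured only the spread between these libraries, which may be technical.

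In SET-seq the nuclei are held on concanavalin A beads for the chromatin reaction, and the RNA that stays in the supernatant is primed with oligo(dT), reverse transcribed, cut by the Tn5 transposase as an mRNA/cDNA hybrid and amplified by PCR. An mRNA molecule lost before amplification cannot be brought back by deeper sequencing, whereas a captured molecule is copied many times, so rare transcripts are the first to drop out of small samples. Embryonic stem cells divide fast, make much ribosome and histone mRNA, and keep their state through the transcription factors Pou5f1, Sox2 and Nanog. Their Polycomb repressive complexes, PRC1 and PRC2, act in gene repression.

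Depth differed widely between the 10-cell libraries. Outside Rn45s, the gene of the ribosomal RNA precursor, replicate 1 held 3693999 counts and replicate 2 only 188275, against 5682258 and 4730219 in the 10000-cell libraries. One count over 1000 exon bases was worth 0.271 RPKM (a level scaled to exon length and to the counts of the library outside Rn45s) in the deep 10-cell library and 5.31 RPKM in the shallow one. A library of 1000 cells, replicate 2, happened to hold 195539 counts and gave a reference at almost the same depth as the shallow 10-cell library. The other libraries of 100 and 1000 cells held between 1299038 and 7522420 counts. The reads carried no molecular identifiers, so a count is a read and not a molecule.

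In 10 cells, nearly every abundant mRNA was detected in the deep library and far fewer in the shallow one. After all libraries were reduced to 188275 counts, 9529.2 genes were expected in 10-cell replicate 1 and 5828 were present in replicate 2, against 10141 and 11439 in the 10000-cell libraries. The mean was 7678.6 ± 2620 genes (SD, n = 2) in 10 cells and 10790 ± 918 (SD, n = 2) in 10000 cells, or 71.2% of the larger number. Both 10-cell libraries lay below both 10000-cell libraries, but with 2 against 2 an exact two-sided permutation test could not give a p below 0.333, which was the value obtained. The 100-cell libraries lay at 10018 and 10057 genes and the 1000-cell libraries at 10203 and 10401, so replicate 2 of 10 cells stood apart from every other library, including the 1000-cell library of its own depth. Only 657 of its 5828 genes (11.3%) rested on a single count, against 1588 (15.2%) in that 1000-cell library.

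Expression level set which genes survived. Genes were put into classes by their RPKM in 10000-cell replicate 1, and detection was then read in libraries that had not set the classes. Of 5487 genes at 1 to 10 RPKM, 1575 (28.7%) had at least 1 count in both 10-cell libraries. Replicate 1 alone held 85.0% of them and replicate 2 alone 29.9%, so the share in both was set by replicate 2. Of 4900 genes at 10 RPKM and above, 3523 (71.9%) were in both, with 99.3% in replicate 1 and 72.0% in replicate 2. Only 29 of these 4900 genes were seen in neither.

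The gap did not close when depth was made equal. At 188275 counts, 10-cell replicate 1 was expected to hold 69.4% of the genes at 1 to 10 RPKM, the 1000-cell library 77.6% and 10000-cell replicate 2 81.9%. For the 1541 genes at 10 to 20 RPKM the expected shares were 94.6% in 10-cell replicate 1, 96.6% in the 1000-cell library and 98.2% in 10000-cell replicate 2, but 53.6% in 10-cell replicate 2. The shallow 10-cell library reached 85.7% only for the 775 genes at 50 to 100 RPKM and 99.5% for the 188 genes at 500 RPKM and above.

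**Figure D1:**
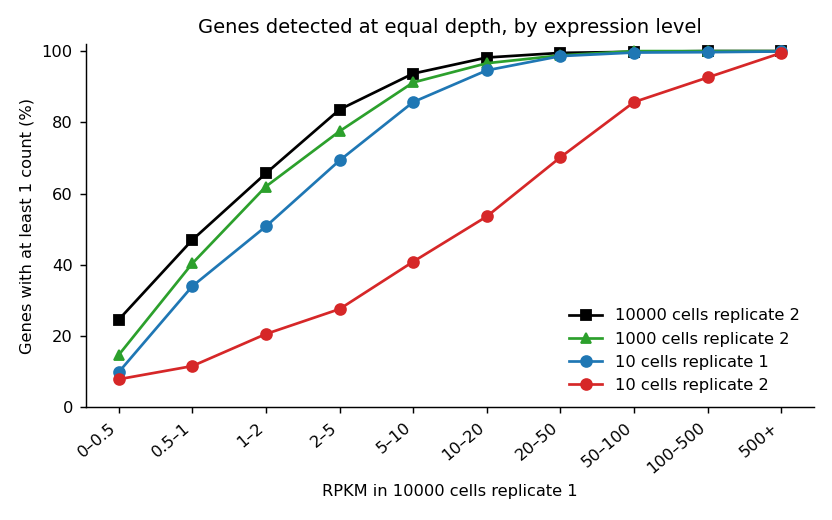
Share of genes (%, y axis) with at least 1 count after every library was reduced to 188275 counts outside Rn45s, by the gene's RPKM class in 10000-cell replicate 1 (x axis). Each line is 1 library. At 1 to 2 RPKM, 10-cell replicate 1 (blue) lies at 50.8%, below the 1000-cell (green, 62.0%) and 10000-cell (black, 65.7%) libraries. It comes near these from 10 RPKM upward. 10-cell replicate 2 (red) stays below all 3 in each class, with 53.6% at 10 to 20 RPKM.

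A gene's expected count, its mean share of the 10000-cell counts times the depth of the library, allowed the same reading without classes. Among genes expected at 10 or more counts, 869 of 10994 (7.9%) were at 0 in 10-cell replicate 1 and 607 of 3577 (17.0%) in replicate 2. The corresponding numbers were 220 of 12594 (1.75%) in 1000-cell replicate 1 and 3 of 3683 (0.0815%) in replicate 2. At an expected count of 30 or more, 159 of 8702 genes (1.83%) were still at 0 in 10-cell replicate 1 and 47 of 1280 (3.67%) in replicate 2, and 0 of 1326 in 1000-cell replicate 2. The shallow library of 10 cells thus lacked genes that the 1000-cell library of like depth held.

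Levels were closer to the 10000-cell values in replicate 1 than in replicate 2. The median absolute difference of log2(RPKM + 1) from 10000-cell replicate 2 was 0.470 in 10-cell replicate 1 for genes at 10 RPKM and above, 0.478 in the shallow 1000-cell library and 0.145 in 10000-cell replicate 1. In 10-cell replicate 2 it was 1.17. For genes at 1 to 10 RPKM the differences were 0.672, 0.767, 0.254 and 1.95 in the same order. The deep 10-cell library was thus about as far from 10000 cells as the much shallower 1000-cell library, and both were farther than the 2 libraries of 10000 cells were from each other.

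In the shallow 10-cell library many genes of low level were absent, and those detected read above their 10000-cell level. Genes at 10 to 20 RPKM had a median of 4.12 RPKM there over all genes of the class, but 25.7 RPKM over those detected, against 13.0 RPKM over the genes detected in replicate 1 and 15.0 RPKM in 10000-cell replicate 2. At 1 to 2 RPKM the detected genes had a median of 9.24 RPKM, against 1.88 RPKM in 10000-cell replicate 2. This difference was gone at 100 to 500 RPKM, where detected genes had medians of 168 and 167 RPKM in the 10-cell libraries and 165 RPKM in 10000-cell replicate 2. The shallow library itself decided which genes counted as detected, and 1 count over 1000 bases was worth 5.31 RPKM in it. Detected genes of the lowest classes therefore had to read high. The same medians were not computed for the 1000-cell library of like depth, so the part of depth cannot be read from them.

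**Figure D2:**
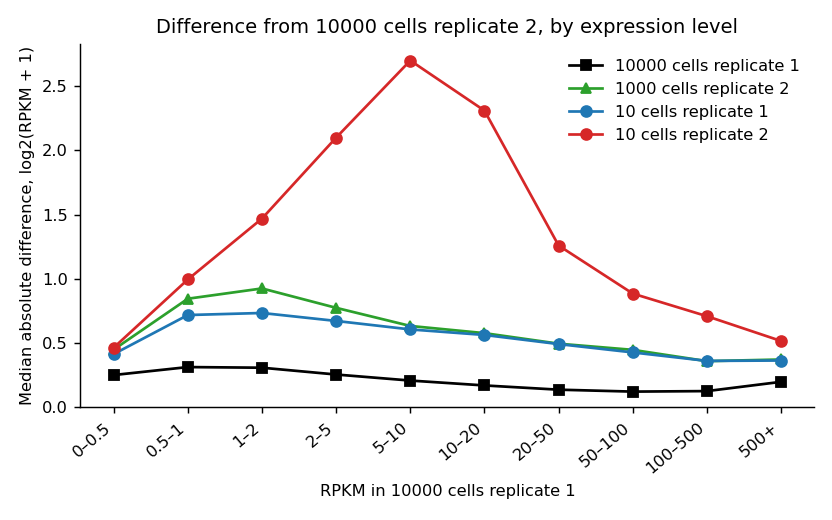
Median absolute difference of log2(RPKM + 1) from 10000-cell replicate 2 (y axis, log2 units) for genes in each RPKM class of 10000-cell replicate 1 (x axis), 1 line per library. 10-cell replicate 2 (red) peaks at 2.70 for genes at 5 to 10 RPKM and falls to 0.517 at 500 RPKM and above, whereas 10-cell replicate 1 (blue) lies between 0.362 and 0.735 from 1 RPKM upward, near the shallow 1000-cell library (green).

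Housekeeping functions were measured almost completely in 10 cells. Of the members of each gene list at a mean of 10 RPKM and above in 10000 cells, replicate 1 detected all in every list shown in the plot of detection by gene list, except the replication-dependent histones. All genes at that level, 5107 in number, were detected at 99.3% in replicate 1 and 71.8% in replicate 2. In replicate 2 the 30 chaperones were all present, as were 43 of 44 genes of RNA processing (spliceosome and hnRNP proteins), 41 of 42 translation factors, 36 of 37 genes of ribosome biogenesis, 69 of 73 nuclear-encoded respiratory chain subunits, 66 of 71 cytosolic ribosomal proteins, and 37 of 40 proteasome subunits. Fewer were present among the mitochondrial ribosomal proteins (58 of 72), the cholesterol synthesis genes (11 of 16), and the immediate early and heat shock genes (5 of 10). The lists differ in level within that range, so the counts describe what was seen and do not rank functions at a given level.

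The most abundant mRNAs were all measured in 10 cells, some at overlapping levels and some lower. Eef1a1, the elongation factor that brings aminoacyl-tRNA to the ribosome, had 5560 and 4360 RPKM in the 10-cell libraries and 5670 and 5010 RPKM in the 10000-cell libraries, so the groups overlapped. Actb, cytoplasmic actin, had 1440 and 1650 RPKM in 10 cells and 1530 and 1450 RPKM in 10000 cells. Hsp90ab1, a cytosolic chaperone, had 3880 and 4000 RPKM against 3630 and 3450 RPKM. The most abundant gene, Rpl41 of the large ribosomal subunit, was lower in both 10-cell libraries, with 8150 and 9100 RPKM against 22200 and 15600 RPKM, a log2 fold change of -1.38 ± 0.469 (SE; edgeR p = 0.0259, adjusted p = 0.34). Ribosomal proteins as a group took 9.05% and 7.46% of the counts in 10 cells and 11.7% and 9.67% in 10000 cells, and 32 of the 76 tested lay below both 10000-cell libraries in both 10-cell libraries and 13 above, beside 36.3% and 15.6% of all genes tested.

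**Figure D3:**
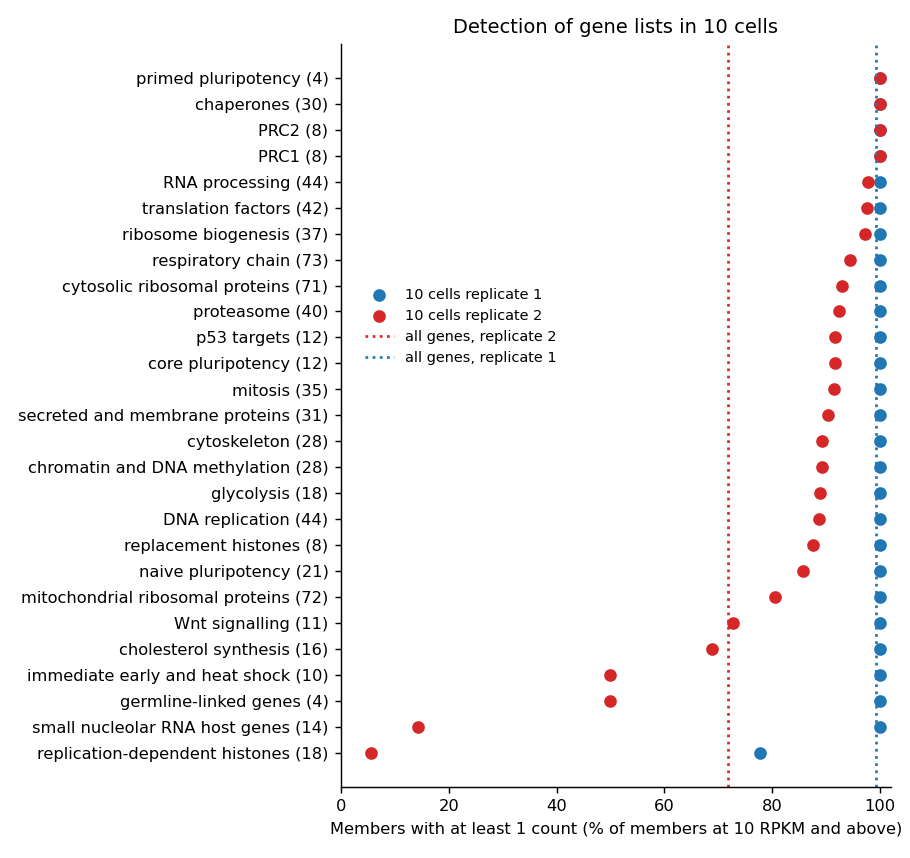
Members of each gene list with at least 1 count in 10-cell replicate 1 (blue) and replicate 2 (red), as a percentage (x axis) of the members at a mean of 10 RPKM and above in 10000 cells, whose number stands in brackets. Dotted lines mark all 5107 genes at that level, 99.3% and 71.8%; the small nucleolar RNA host genes (2 of 14) and the replication-dependent histones (1 of 18) lie farthest below the line of replicate 2.

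The pluripotency genes were preserved. All 16 genes of the core pluripotency list and all 25 of the naive list, the genes of the state kept by serum and LIF, were detected in 10-cell replicate 1, and 14 and 20 of them in replicate 2. Zfp42, also called Rex1, had 361 and 357 RPKM in 10 cells and 262 and 316 RPKM in 10000 cells. Klf2, a Krüppel-like factor of the naive state, had 365 and 377 RPKM against 346 and 319 RPKM. Neither difference passed the test, with log2 fold changes of 0.103 ± 0.343 (SE) for Zfp42 and -0.0642 ± 0.338 (SE) for Klf2 and edgeR adjusted p-values of 0.953 and 0.971. Klf2 was higher by RPKM in both 10-cell libraries, and the TMM factor of 1.311 for replicate 2 in the fit turned that direction.

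Pou5f1, which encodes Oct4, lay at 109 and 261 RPKM in 10 cells and 172 and 155 RPKM in 10000 cells, so that the 10-cell libraries lay on either side of the others. Nanog was higher in both 10-cell libraries, at 330 and 659 RPKM against 113 and 201 RPKM, and the libraries of 100 cells (313 and 454 RPKM) and 1000 cells (241 and 547 RPKM) also lay above both 10000-cell libraries. Its log2 fold change of 10 against 10000 cells was 1.35 ± 0.395 (SE), with an edgeR p of 0.0138 and an adjusted p of 0.23. Dppa5a, an RNA-binding protein of embryonic stem cells, had the highest RPKM of the list, with 3650 and 3430 RPKM in 10 cells and 2590 and 1900 RPKM in 10000 cells. As groups, the core list took 0.947% and 1.19% of counts in 10 cells and 1.04% and 0.978% in 10000 cells, and the naive list 0.581% and 0.561% against 0.554% and 0.593%.

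Fewer markers of other cells were detected in 10 cells than in 10000. Detected in both 10000-cell libraries were 11 of 19 fibroblast, 12 of 20 blood and endothelial and 19 of 22 primitive endoderm markers. The shallow 1000-cell library held 2, 1 and 6 of them. Of 19 fibroblast markers, as feeder cells would carry, each 10-cell library held 2, which together made 0.000596% and 0.00106% of counts, against 0.0044% and 0.00647% in 10000 cells. Of 20 blood and endothelial markers the 10-cell libraries held 3 and 1. The primitive endoderm list, whose genes also mark cells that leave pluripotency spontaneously, had 10 and 6 of 22 members in the 10-cell libraries. Its basement membrane gene Lama1 had 34 counts and 0 counts in 10 cells against 451 and 354 in 10000 cells, while Sparc, a matrix glycoprotein, had 128 and 115 RPKM against 91.2 and 97.2 RPKM (edgeR adjusted p = 0.933). In bulk samples, fewer cells of a type and less RNA per cell cannot be told apart.

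Genes of other lineages were near the floor in 10000 cells, and fewer of them were detected in 10. Of 41 mesoderm and neural genes, 15 and 4 were detected in the 10-cell libraries, against 29 in both 10000-cell libraries. Of 33 genes of the 2-cell-like state it was 14 and 3, against 23. Of the members expected at 10 or more counts in replicate 1, that library held 10 of 13 and 8 of 10. Among all genes so expected it held 92.1%. Replicate 1 of 100 cells held 13 and 8 of the same members. By share of counts the 2-cell-like list was not lower, at 0.023% and 0.0372% in 10 cells against 0.0139% and 0.0228% in 10000. The mesoderm and neural list overlapped, at 0.00975% and 0.0282% against 0.0166% and 0.0188%. Lhx2, a LIM homeobox factor, had 0 counts in both 10-cell libraries and 22 and 19 in 10000 cells. Zscan4c, a marker of the 2-cell-like state, was at 1.67 and 2.33 RPKM in 10 cells and 1.78 and 3.72 RPKM in 10000 cells. Of all 1486 genes at 1 to 2 RPKM, replicate 1 held 71.9% and replicate 2 held 20.6%.

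Among members at 10 RPKM and above, replication-dependent histones were the list with the smallest share detected in each 10-cell library. The 30 members tested had a median of 501 exon bases, against 3074 for all genes tested. At a given RPKM they thus carried fewer counts, and the ranking does not compare lists at equal expected counts. The mRNAs of these histones end in a conserved stem-loop and mostly carry no poly(A) tail, unlike those of the replacement histones. The stem-loops of 4 members are shown, read from the mm9 genome on the gene's strand with the stem in capitals and the loop in lower case, because this element defines the class: H4c14, H4f16 and H3c1 had 0 counts in both 10-cell libraries and H2ac8 was present in replicate 1.
H4c14, chr3:96066862-96066877, minus strand: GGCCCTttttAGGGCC
H4f16, chr6:136752519-136752534, minus strand: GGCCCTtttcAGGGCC
H3c1, chr13:23853759-23853774, minus strand: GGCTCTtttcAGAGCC
H2ac8, chr13:23662537-23662552, minus strand: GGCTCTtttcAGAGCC
The motif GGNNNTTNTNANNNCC on the gene's strand, in the last 100 bases of the gene and the 30 bases after, was found in 55 of the 64 histone genes (85.9%) and in 90 of 25044 genes with such a window (0.359%). A match describes the sequence and is not evidence of processing.

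Of the 64 histone genes, 26 were detected in 10-cell replicate 1, 2 in replicate 2 and 38 in neither, against 54 in both 10000-cell libraries. Of 18 at 10 RPKM and above, replicate 1 held 14 and replicate 2 held 1. H4c14, a histone H4 gene, had 0 counts in both 10-cell libraries and 296 and 173 counts (136 and 95.2 RPKM) in 10000 cells. With a floor of 3 counts per library it was at least 54.6-fold lower in 10-cell replicate 1. It was also low in the 100-cell libraries (1.2 and 4.01 RPKM) and in 1000-cell replicate 1 (10.7 RPKM), yet at 79.9 RPKM in 1000-cell replicate 2, so it was lowest at the 2 smallest cell numbers.

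The histones did not share one pattern. H2ac8, a histone H2A gene, had 331 counts in 10-cell replicate 1 and 0 in replicate 2, where 13.1 were expected, and 372 and 351 in 10000 cells. H1f5, a linker histone, ran the other way, with 50 and 29 counts in 10 cells (17.0 and 194 RPKM) against 29 and 32 counts in 10000 cells. H1f5 and H2bc18 were the 2 members seen in replicate 2. Of the 6 members expected at 3 or more counts in that library, 0 were detected, beside 65.2% of all 7005 genes so expected. The 1000-cell library of like depth held all 6, beside 98.7% of all genes. In replicate 1, 16 of 27 members expected at 10 or more counts were detected, beside 92.1% of all 10994 genes so expected.

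Among 30 histone genes tested, 12 had an unadjusted edgeR p below 0.05 and lay lower in 10 cells, 0 lay higher, and none passed after adjustment. Over all 11084 genes tested, 8.34% lay lower and 1.80% higher at that level. The median log2 fold change of the list was -1.77 as fitted and -1.74 when the 11 members at 0 in both 10-cell libraries were set to their bound, beside -0.36 for all genes under either rule. The exons of these genes had a median GC content of 60.5%, against 50.9% for all genes tested, and the list's median was -0.996 relative to the genes in the same of 10 equal GC classes, an alternative chosen after seeing the data. The part of GC content in this result was not tested.

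Replacement histones, which are made throughout the cell cycle from polyadenylated mRNA, were retained. All 10 were detected in 10-cell replicate 1 and 9 in replicate 2. H2az1, the H2A.Z variant, had 249 and 601 RPKM in 10 cells and 24.9 and 86.8 RPKM in 10000 cells, with 262 and 278 RPKM in 100 cells and 163 and 282 RPKM in 1000 cells. Its log2 fold change was 2.61 ± 0.66 (SE; edgeR p = 0.0073, adjusted p = 0.173). The 10000-cell libraries were those that stood apart, since all 6 smaller samples lay above both.

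Small nucleolar RNA host genes, spliced long noncoding RNAs whose introns hold snoRNAs, were present in replicate 1 and nearly absent from replicate 2. Of 20 such genes, 17 were detected in replicate 1 and 2 in replicate 2, where Snhg1 had 10 counts and Snhg16 had 17. Snhg15 had 126 RPKM in replicate 1 and 0 in replicate 2, where 20.8 counts were expected, against 193 and 180 RPKM in 10000 cells. Snhg8 was lower in replicate 1 as well, at 47.9 RPKM, then 0, against 220 and 177 RPKM. Of the 13 members expected at 3 or more counts in replicate 2, that library held 2 (15.4%) and the 1000-cell library of like depth all 13, beside 65.2% and 98.7% for all 7005 genes so expected. The median log2 fold change was -1.25 over 17 members tested, with 0 members at an unadjusted edgeR p below 0.05 in either direction.

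Over all annotated long noncoding RNAs, the host genes included, replicate 2 held 6 of 15 expected at 5 to 20 counts, beside 61.1% of 3562 protein-coding genes, and 3 of 6 expected at 20 to 50 counts. The 3 missing from the last group were the host genes Snhg8, Snhg15 and Zfas1, and the 1000-cell library of like depth held all of them. Malat1, a nuclear long noncoding RNA, remained at 12.4 and 18.3 RPKM in 10 cells and 8.52 and 11.8 RPKM in 10000 cells. Rian, an imprinted noncoding RNA, had 0 counts in both 10-cell libraries and 37 and 41 counts in 10000 cells.

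Polycomb and chromatin genes divided by gene. All 12 PRC2 subunits were detected in 10-cell replicate 1 and 8 in replicate 2, where Ezh1, Aebp2, Phf1 and Phf19 had 0 counts. Suz12, the scaffold of PRC2, had 45.3 and 130 RPKM in 10 cells and 9.14 and 19 RPKM in 10000 cells, a log2 fold change of 2.29 ± 0.556 (SE; edgeR p = 0.00612, adjusted p = 0.173). Mtf2, a Polycomb-like accessory subunit, had 68.0 and 114 RPKM against 20.1 and 36.0 RPKM. Jarid2, which targets the complex to DNA, was even, at 27.4 and 38.8 RPKM against 30.7 and 32.2 RPKM, and Epop, an accessory subunit, lay at 138 and 230 RPKM against 233 and 203 RPKM. PRC2 genes took 0.221% and 0.296% of counts in 10 cells and 0.128% and 0.158% in 10000 cells. They took 0.207% and 0.221% in 100 cells and 0.195% and 0.25% in 1000 cells. The higher share was thus not particular to 10 cells, since all smaller samples lay above both 10000-cell libraries.

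The PRC1 list lay on the other side, with a median log2 fold change of -0.816 over 21 members tested against 0.376 over the 12 of PRC2. Phc1, a polyhomeotic subunit, had 44.2 and 59.2 RPKM in 10 cells and 94.1 and 86.1 RPKM in 10000 cells. Pcgf2, a ring finger subunit, had 34.2 and 1.87 RPKM, the second from 1 count, against 62.8 and 58.8 RPKM. Exon GC content differed between these lists, with medians of 46.9% for PRC2 and 54.1% for PRC1. Relative to genes in the same of 10 equal GC classes their medians were 0.529 and -0.0336.

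Kmt2d, an H3K4 methyltransferase with 19827 exon bases at chr15:98662100-98701636, had the smallest p of all genes. It held 44 and 2 counts in 10 cells and 1123 and 901 in 10000 cells, or 0.601 and 0.536 RPKM against 9.97 and 9.61 RPKM, a log2 fold change of -4.20 ± 0.58 (SE; edgeR p = 0.000336, adjusted p = 0.173). The libraries of 100 cells (1.01 and 2.41 RPKM) and 1000 cells (1.64 and 3.35 RPKM) lay between. Mbd3, a subunit of the NuRD complex, was also lower in both 10-cell libraries, at 102 and 107 RPKM against 256 and 245 RPKM, while the 100-cell and 1000-cell libraries lay between 221 and 229 RPKM. Wdr5, a subunit shared by the H3K4 methyltransferase complexes, was not, at 199 and 414 RPKM against 200 and 197 RPKM.

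Wnt pathway genes were among the lists with more members lower in 10 cells. Of 30 tested, 17 lay below both 10000-cell libraries in both 10-cell libraries and 1 above, beside 36.3% and 15.6% of all genes tested. Lef1, Fzd8, Fzd2 and Nkd1 had 0 counts in both 10-cell libraries. Lef1, a TCF family factor, had 22 and 21 counts in 10000 cells, and the Frizzled receptor gene Fzd2 had 61 and 52. Ctnnb1, which encodes beta-catenin, was at 176 and 177 RPKM in 10 cells and 71.8 and 117 RPKM in 10000 cells, above both. These 4 were also the members with an unadjusted edgeR p below 0.05. The libraries are labelled untreated, so the values describe unstimulated cells.

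Across all genes, none was called between 10 and 10000 cells. The edgeR quasi-likelihood test on 11084 genes gave 0 calls at an adjusted p below 0.05 (0.0%), with a smallest adjusted p of 0.173, and DESeq2 also gave 0. At an unadjusted p below 0.05 there were 1124 genes in edgeR, of which 200 (1.80%) were higher and 924 (8.34%) lower in 10 cells, and 573 of the lower genes had 0 counts in both 10-cell libraries. Both 10-cell libraries lay above both 10000-cell libraries for 1725 genes (15.6%) and below for 4025 (36.3%). Of the 1124 genes 82.2% were lower, or 71.6% of 1330 genes when libraries were scaled by total counts, which moved the median of all genes from -0.36 to -0.22. The balance turned after thinning to the shallowest library, with 183 higher and 129 lower of 4147 genes tested, and without 10000-cell replicate 2, with 64 higher and 45 lower. In data simulated at these depths, the test called 0% of genes changed 4-fold and 26.1% of genes changed 16-fold.

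Fits that leave 1 library in a group take its spread from the other groups, so their calls rest on that assumption. In the fit of the 6 deep libraries, 10-cell replicate 1 had a median log2 fold change of -0.236 against 10000 cells. Against the libraries of 100 and 1000 cells in that fit it was -0.117, so the difference depended on the reference. Leaving out either 10-cell library changed the count of genes called. Without replicate 2, 3992 of 12585 genes were called (1513 higher, 12.0%, and 2479 lower, 19.7%), on the assumption that the single 10-cell library left varies like the 10000-cell libraries. Without 10-cell replicate 1, 5710 of 12213 were called on the same assumption. Leaving out 10000-cell replicate 1 or 2 gave 0 calls, with 19 and 109 genes at an unadjusted p below 0.05. With the 6 deep libraries in one fit, chosen after seeing the data, 10-cell replicate 1 differed from 10000 cells at 1200 of 13188 genes, 375 higher (2.84%) and 825 lower (6.26%).

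Of 40 proteasome genes tested, 4 were higher and 0 lower in 10 cells at an unadjusted edgeR p below 0.05, of 43 translation factors 5 and 3, and of 40 ribosome biogenesis genes 3 and 0, beside 1.80% and 8.34% of all genes tested. Psmd13, a lid subunit of the proteasome at chr7:148068293-148084541, had 103 and 173 RPKM in 10 cells, 103 and 132 RPKM in 100 cells, 64.0 and 68.7 RPKM in 1000 cells and 14.6 and 18.8 RPKM in 10000 cells. Its log2 fold change was 2.76 ± 0.516 (SE; edgeR p = 0.00169, adjusted p = 0.173). Eif5b, which joins the ribosomal subunits at the start codon, had 37.6 and 72.2 RPKM against 8.78 and 13.6 RPKM, a log2 fold change of 1.99 ± 0.404 (SE; edgeR p = 0.00256, adjusted p = 0.173). Npm1, the nucleolar protein nucleophosmin, had 1980 and 1730 RPKM against 253 and 677 RPKM, and its 10000-cell libraries were themselves far apart. For each of these genes all 6 libraries of 10, 100 and 1000 cells lay above both 10000-cell libraries.

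Of the lists with 30 or more members tested, chaperones and ribosome biogenesis genes had the highest median log2 fold changes, 0.462 over 31 members and 0.331 over 40, beside -0.36 for all genes. Of the chaperones 19 lay above both 10000-cell libraries in both 10-cell libraries and 3 below, beside 15.6% and 36.3% of all genes tested. Hsp90aa1, the inducible cytosolic HSP90, had 1320 and 980 RPKM in 10 cells and 239 and 448 RPKM in 10000 cells, and Tcp1, a subunit of the cytosolic chaperonin, 306 and 325 RPKM against 112 and 136 RPKM. Of the ribosome biogenesis genes 19 lay above and 3 below, among them Nop58, a box C/D snoRNP protein, at 160 and 245 RPKM against 41.9 and 79.9 RPKM. The chaperone list also lay above the 10000-cell mean in the libraries of 100 cells, by median log2 differences of 0.623 and 0.622 for its members at 10 RPKM and above, and in those of 1000 cells, by 0.499 and 0.6. All these comparisons share the 10000-cell libraries.

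Other genes were lower in 10 cells with a small unadjusted p, of which Srrm2 and Lncenc1 were picked after their values were seen. Srrm2, a spliceosome scaffold, had 14.6 and 13.2 RPKM in 10 cells and 70.6 and 63.1 RPKM in 10000 cells, a log2 fold change of -2.45 ± 0.393 (SE; edgeR p = 0.000754, adjusted p = 0.173). Lncenc1, a long noncoding RNA of embryonic stem cells, had 60.4 and 68.9 RPKM against 208 and 248 RPKM. Hspg2, which encodes the basement membrane proteoglycan perlecan, had 3.11 and 4.87 RPKM against 14.8 and 15.3 RPKM. For Srrm2 and Lncenc1 the 100-cell and 1000-cell libraries all fell between the groups, and for Hspg2 they reached from 4.18 to 5.76 RPKM, nearer to 10 cells.

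**Figure D4:**
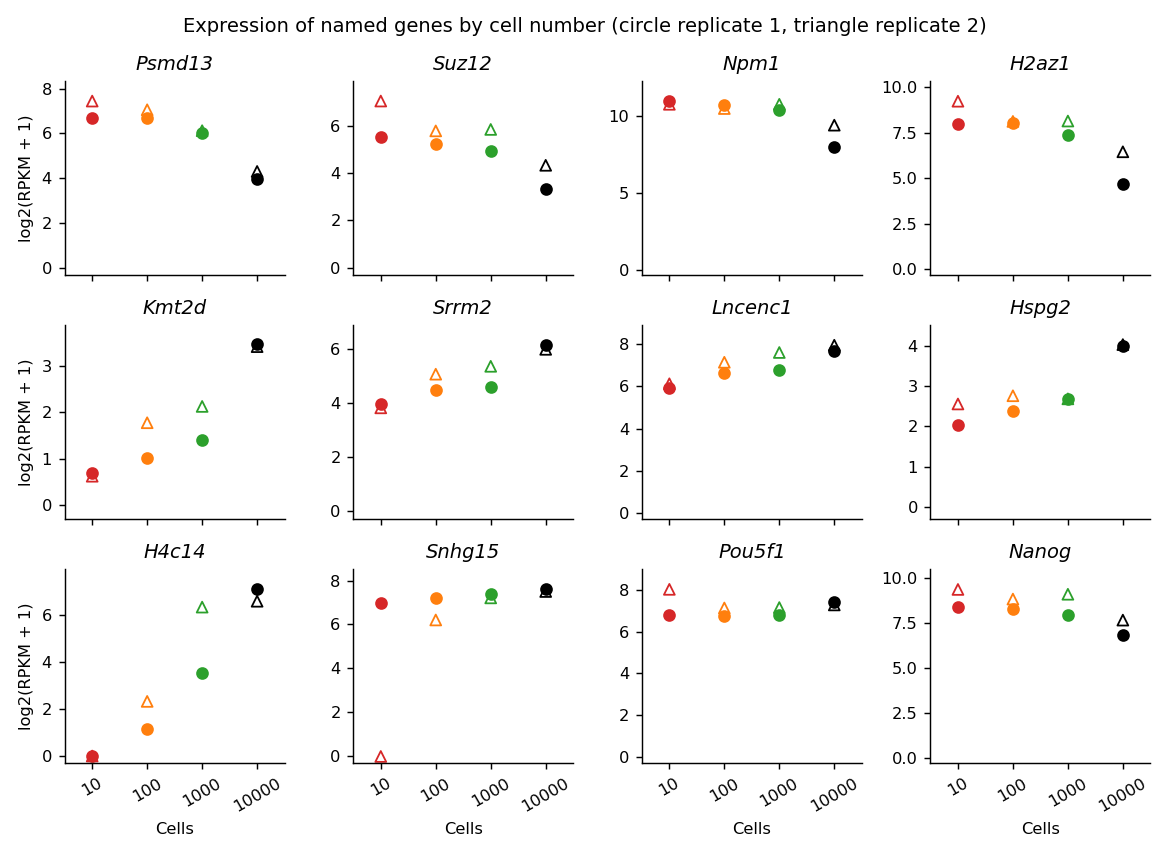
Expression of 12 genes as log2(RPKM + 1) (y axes, each panel with its own scale) in the libraries of 10, 100, 1000 and 10000 cells (x axis); circles are replicate 1 and triangles replicate 2. Psmd13, Suz12, Npm1, H2az1 and Nanog are lowest in 10000 cells, Kmt2d, Srrm2, Lncenc1, Hspg2 and H4c14 are highest there, and Snhg15 is at 0 only in 10-cell replicate 2.

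Base composition moved with the difference between cell numbers. Genes at 10 RPKM and above were put into 5 equal classes of exon GC content, with medians from 44.5% to 58.9%. In the most AT-rich class the median log2 difference from the 10000-cell mean was 0.638 and 0.393 in the 10-cell libraries, and in the most GC-rich class -0.546 and -0.859. The libraries of 100 cells ran from 0.538 and 0.594 to -0.336 and -0.288, and those of 1000 cells from 0.454 and 0.758 to -0.214 and -0.518. All 6 differences are taken from the same 10000-cell mean, so it cannot be told apart whether the smaller samples or the 10000-cell libraries carry the slope. The 10000-cell libraries lay at -0.168 and 0.168 in the AT-rich class. The sources used here do not say whether they were amplified or sequenced with the others. Genes higher in 10 cells at an unadjusted p below 0.05 had a median GC content of 44.0% and those lower 54.7%. What made the composition differ was not tested.

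**Figure D5:**
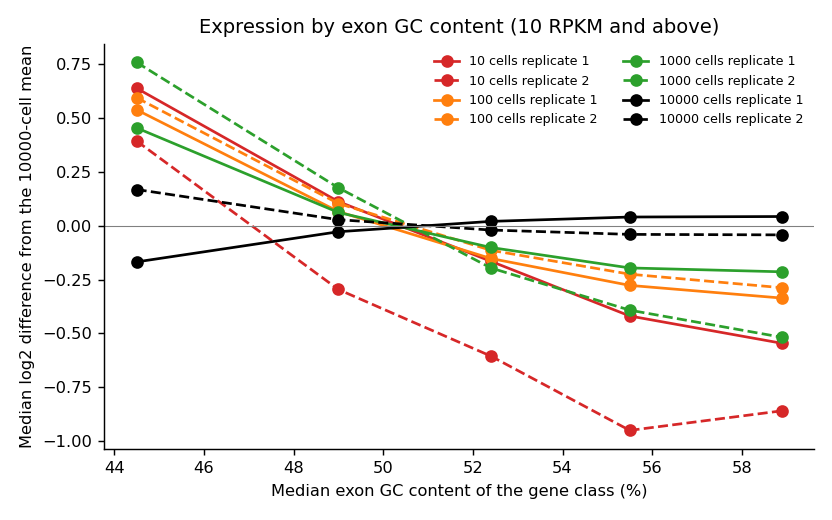
Median log2 difference from the 10000-cell mean (y axis) of genes at 10 RPKM and above in 5 classes of exon GC content (x axis, median % of the class), 1 line per library, solid for replicate 1 and dashed for replicate 2. All 6 libraries of 10 to 1000 cells lie lower at the GC-rich than at the AT-rich end, from 0.638 to -0.546 in 10-cell replicate 1, and 10-cell replicate 2 lies lowest of all libraries from the second class on.

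The shortest genes were read apart, since at a given RPKM they carry fewer counts. Among genes at 5 RPKM and above, the 60 with exons of at most 396 bases had median log2 differences of -2.42 and -2.99 in the 10-cell libraries, and 41.7% and 18.3% of them were detected, beside 48.3% in the shallow 1000-cell library. Their differences were -0.444 and -2.42 in replicates 1 and 2 of 100 cells and -0.432 and -1.88 in those of 1000 cells. Low values were thus not particular to 10 cells. At matched expected counts of 5 to 20, replicate 2 detected 59.8% of 87 genes of 400 to 800 bases and 54.6% of 509 genes in the longest class of exons.

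Transcripts that 10 cells lost altogether were counted against a fixed level. Of 11044 genes with at least 10 counts in each 10000-cell library, 797 had 0 counts in both 10-cell libraries, 795 of them with exons of 300 bases or more. By level the first were H4c14, then 2200002D01Rik, Hddc3, H3c1, Etaa1os and Lpcat4. Lpcat4, a lysophospholipid acyltransferase, had 160 and 143 counts in 10000 cells and, with the same floor, was at least 35.9-fold lower in 10-cell replicate 1, and Apbb3, an adaptor that binds the amyloid precursor protein, had 174 and 126 counts and was at least 35.3-fold lower. Both were found in all 4 libraries of 100 and 1000 cells. Of the 10174 genes at 1 RPKM and above in both 10000-cell libraries, 648 (6.37%) were at 0 in both 10-cell libraries and 5090 (50.0%) were detected in both.

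The reverse was rare. Only 5 genes had counts in both 10-cell libraries and 0 in both 10000-cell libraries, and none had over 5 counts. 9330158H04Rik had 5 and 2 counts, and Brinp3, 1700112J16Rik, Nhlh2 and Gm19500 had 1 or 2 counts per library. Counting those in either 10-cell library gave 67 genes.

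The 2 libraries of 10 cells differed most in genes that replicate 2 missed. Of 4786 genes at 10 RPKM and above in both 10000-cell libraries, 1292 were at 0 in replicate 2, 20 in replicate 1 and 19 in both. Nob1, an endonuclease of small ribosomal subunit maturation, had 973 counts in replicate 1 and 0 in replicate 2, where 53.2 were expected. S100a10, the annexin A2 partner, had 1195 and 0 with 33.9 expected. Both were found in every library of 100, 1000 and 10000 cells.

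A few genes ran the other way. Brpf1, a scaffold of histone acetyltransferases, had 34 counts in replicate 1, where 197 were expected, and 44 in the shallow replicate 2, where 10.1 were expected. Nrtn, the growth factor neurturin, had 2 counts with 128 expected and 18 with 6.52 expected. Hspb6, a small heat shock protein, had 0 with 80.5 expected and 8 with 4.1 expected. Genes of this kind were named for the largest ratios between the replicates, so the ratios themselves describe the choice.

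Mir682 and Mir6236, microRNA genes of 96 and 123 bases, stood among the 12 genes of highest RPKM in 10000 cells. The counts lie over the annotated precursor, in libraries primed with oligo(dT), and do not measure the mature microRNA. The mature sequences are given to identify the loci, from RefSeq on GRCm38.p6 with the seed, bases 2 to 8, in capitals.
mmu-miR-6236: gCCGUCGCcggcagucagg
mmu-miR-682: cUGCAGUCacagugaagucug
Mir6236, at chr9:110183791-110183913 of mm9, had 1370 and 907 RPKM in 10 cells, 873 and 382 RPKM in 100 cells, 789 and 998 RPKM in 1000 cells and 8000 and 5500 RPKM in 10000 cells. Its log2 fold change was -2.70 ± 0.499 (SE; edgeR p = 0.00158, adjusted p = 0.173), and the 2 libraries of 10000 cells again stood apart from the other 6. Mir682 had 13000 and 10100 RPKM in 10 cells and 13500 and 9660 RPKM in 10000 cells. Its 96-base hairpin shares an exact run of 48 bases with Rpl37a, a ribosomal protein gene, so its counts are uncertain. Mir6236 was not searched in this way, so whether its counts are shared with other RNA is not known.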

How the data were processed

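Expression libraries of E14 cells were compared, 2 of 10 and 2 of 10000 cells, with 4 of 100 and 1000 cells as references. Per the labels and the study's methods, the authors trimmed reads with Trim Galore 0.6.4, aligned them to mm9 with STAR 2.5.4b and made the deposited counts per gene with featureCounts 2.0.0 on refGene exons. The counting option named was for read pairs, and neither strand nor removal of duplicates is given in the sources used here, so overlapping and duplicated genes are uncertain. The deposited whole-number counts were used, without Rn45s, and RPKM was computed from them. The main test was edgeR 4.0.16 (quasi-likelihood, TMM, filterByExpr) with Benjamini-Hochberg adjustment in R 4.3.3, called at 0.05. DESeq2 1.42.0, other scalings, no filter, thinning, leaving out each library and a replicate block were tried. Equal depth used the expected number of genes after thinning to 188275 counts. Depth was 188275 to 7522420 counts, and the shallowest library limits precision most. A pseudocount of 1 RPKM was used on the log2 scale. The edgeR script was tested on simulated data. Named genes were those of highest RPKM, those lost or gained in 10 cells, those with the largest ratio between the 10-cell replicates, and in each list those of highest level or smallest p. The members, the 33 gene lists and the rule were chosen with earlier results of these data known. The 10-cell and other comparisons share the 10000-cell libraries. Exon GC content came from mm9. Tools also included Python 3.11.15, pandas 2.3.3, scipy 1.17.1 and matplotlib 3.10.9.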

Additional observations from a re-analysis of the deposited data

How the results depend on the processing

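No gene was called under the other scalings, without a filter, with DESeq2, with Rn45s, with all 8 libraries or after thinning. Equal replicate numbers did not pair the samples: the correlation of deviations was 0.0306. The replicate block gave 15 calls, 3 higher and 12 lower, and 451 genes at an unadjusted p below 0.05, and among the 15 were Kmt2d, Srrm2, Lncenc1, Npm1 and H2az1. The 1124 genes at an unadjusted p below 0.05 became 1834 without a filter, 2051 with all 8 libraries and 312 after thinning, where 41.3% were lower. Without one replicate that number ranged from 19 to 6623 and the calls from 0 to 5710. The 6 deep libraries, a fit added after seeing the data, gave 1200 calls and 3807 genes below an unadjusted p of 0.05. As for detection, the share of genes at 1 to 10 RPKM seen in both 10-cell libraries, 28.7%, ranged from 29.9% to 85.0% in a single replicate, and was 12.3% with levels in CPM, 21.6% at 5 counts and 22.7% with levels from 10000-cell replicate 2. The share at 10 RPKM and above, 71.9%, ranged from 72.0% to 99.3% in a single replicate and was 60.1% with levels in CPM. The median absolute log2 difference of genes at 1 to 10 RPKM, 1.31 over both 10-cell libraries, was 2.71 with a pseudocount of 0.1. The cause of these shifts was not tested, beyond that fewer genes or libraries entered. Of the list medians under all alternatives 218 stayed within the spread used and 46 moved. That spread was wide, so staying within it does not show a stable median. Without a filter the glycolysis median, less that of all genes tested, went from -0.192 to 0.828 and was counted as staying. None of the named genes tested this way reversed. They included Psmd13, Suz12, Srrm2 and Lncenc1, whose 10-cell libraries both lay on 1 side of both 10000-cell libraries, and not Klf2. For such genes a reversal was unlikely from the start. In 10-cell replicate 2, the shallowest library, 1 count over 1000 bases is 5.31 RPKM. At equal depth it still held 5828 genes, against 10401 in 1000-cell replicate 2. What lowered detection there beyond depth was not tested.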

Other observations

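Cell cycle and energy genes were retained in 10 cells. All 44 DNA replication genes and all 35 mitosis genes at 10 RPKM and above were detected in 10-cell replicate 1, with 39 and 32 in replicate 2. Ube2c, the ubiquitin-conjugating enzyme of the anaphase-promoting complex, had 540 and 861 RPKM in 10 cells and 464 and 424 RPKM in 10000 cells. Plk1, a mitotic kinase, had 70.6 and 26.4 RPKM against 150 and 129 RPKM, so the genes of 1 list lay on both sides. Pkm, the pyruvate kinase of glycolysis, had 1110 and 1340 RPKM in 10 cells and 1670 and 1530 RPKM in 10000 cells, while Pgk1, phosphoglycerate kinase, had 193 and 477 RPKM against 97.2 and 89.5 RPKM. The glycolysis list had a median log2 fold change of -0.552 over 19 genes tested, beside -0.36 for all genes, with 1 higher and 1 lower at an unadjusted edgeR p below 0.05, beside 1.80% and 8.34% of all genes tested.

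Secreted and membrane protein genes lay near the background. Of 40 such genes tested, 7 lay above both 10000-cell libraries in both 10-cell libraries and 16 below, beside 15.6% and 36.3% of all genes tested. Sec61a1, the channel of the endoplasmic reticulum translocon, had 60.2 and 57.7 RPKM in 10 cells and 144 and 148 RPKM in 10000 cells, a log2 fold change of -1.51 ± 0.367 (SE; edgeR p = 0.00608, adjusted p = 0.173). Its partner Sec61b had 394 and 385 RPKM against 355 and 381 RPKM. Podxl, which encodes the surface sialomucin podocalyxin, had 0 counts in both 10-cell libraries and 60 and 49 in 10000 cells.

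In the fit of all 8 libraries, 100 against 10000 cells and 1000 against 10000 cells each gave 0 calls in edgeR, with 536 and 241 genes at an unadjusted p below 0.05, beside 2051 for 10 against 10000 cells. The 3 comparisons share the 10000-cell libraries.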
